A study of Schizosaccharomyces pombe with 8 samples.

Results

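The fission yeast Schizosaccharomyces pombe keeps its genome intact with a set of conserved DNA repair, recombination and damage checkpoint genes, many of them named rad (radiation sensitive) or rhp (homologue of a budding yeast RAD gene). The genes described here were chosen by name. They are the S. pombe genes on the array whose symbol in the probe annotation is rad, rhp, msh, mlh, pms, mus, rqh or exo followed by a number, together with atl1 and uvi15. The rule found 44 genes of 2896 S. pombe genes with a named probe set, 26 of them on chromosome I, 10 on II and 8 on III. Symbols given here are the current ones, and 5 members carry an older symbol in the probe annotation: mre11 (rad32), rad52 (rad22), rad54 (rhp54), rad55 (rhp55) and rad57 (rhp57). The name pattern also takes in genes whose proteins do other work. These are exo70 of the exocyst, which tethers secretory vesicles, and exo2, a cytoplasmic RNA exonuclease of the Xrn1 type. The 14-3-3 genes rad24 and rad25 were counted as a role of their own.

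The groups were wild type treated (strain 972h-), wild type control, pap1 deletion treated (strain AV25, h- pap1::kanMX6) and pap1 deletion control, with 2 arrays each, 8 in all. Treated cells were exposed to 3 mM detaNONOate, which releases nitric oxide, for 15 min at 30 °C. Control cells were given an equal amount of decomposed detaNONOate. All cells of all groups had been grown in yeast extract medium and moved to phosphate-buffered saline, and the deletion is represented by a single strain. Replicates within a group are labelled biological, and control and treated cells were portioned from the same flask. The p-values measure the spread between these arrays. Pap1, a bZIP regulator, turns on genes against oxidative stress. The design asks how transcripts respond to nitric oxide and whether the response changes when Pap1 is missing.

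Reactive nitrogen species are known to deaminate and oxidise DNA bases and can give rise to alkylating agents. Such lesions are handled by excision repair, which removes damaged bases or oligonucleotides, and by mismatch repair. Breaks and stalled forks are handled by recombination, and the checkpoint kinases Rad3 and Tel1 stop the cell cycle while damage remains.

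Values are log2 expression values per probe set, so a difference of 1 is a 2-fold change. Each array's median S. pombe gene read 7.85 to 7.96. The targeted gene followed the labels: pap1 read 10.11 and 10.09 in treated and 9.90 and 9.93 in control wild type arrays. In the deletion it read 2.14 and 2.20 in treated and 2.33 and 2.35 in control arrays. Background was set at 3.41, the level that 95% of probe sets do not exceed among those for Saccharomyces cerevisiae on the same array. Of the 44 members, 43 had a mean above it. The exception was exo5, a single-strand DNA exonuclease, which read from 2.39 to 2.78 over the 8 arrays. A further measure differed between the groups: the 3' minus 5' signal of control transcripts. Its median over 7 control transcripts of S. pombe averaged 3.35 ± 0.02 in treated and 1.34 ± 0.08 in control wild type arrays (log2, SD, n = 2 each). In the deletion it averaged 2.64 ± 0.12 in treated and 1.65 ± 0.01 in control arrays. The difference was higher in treated than in control arrays for 6 of the 7 transcripts in each strain. The exception was TFIID, which averaged -0.37 in treated and 1.22 in control wild type arrays, and 0.62 in treated and 1.63 in control deletion arrays. ACT1 averaged 4.63 in treated and 1.08 in control wild type arrays, so the transcripts did not move alike. The median is called the 3' to 5' index below, and members are set against it after the 2 treatment comparisons.

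**Figure D1:**
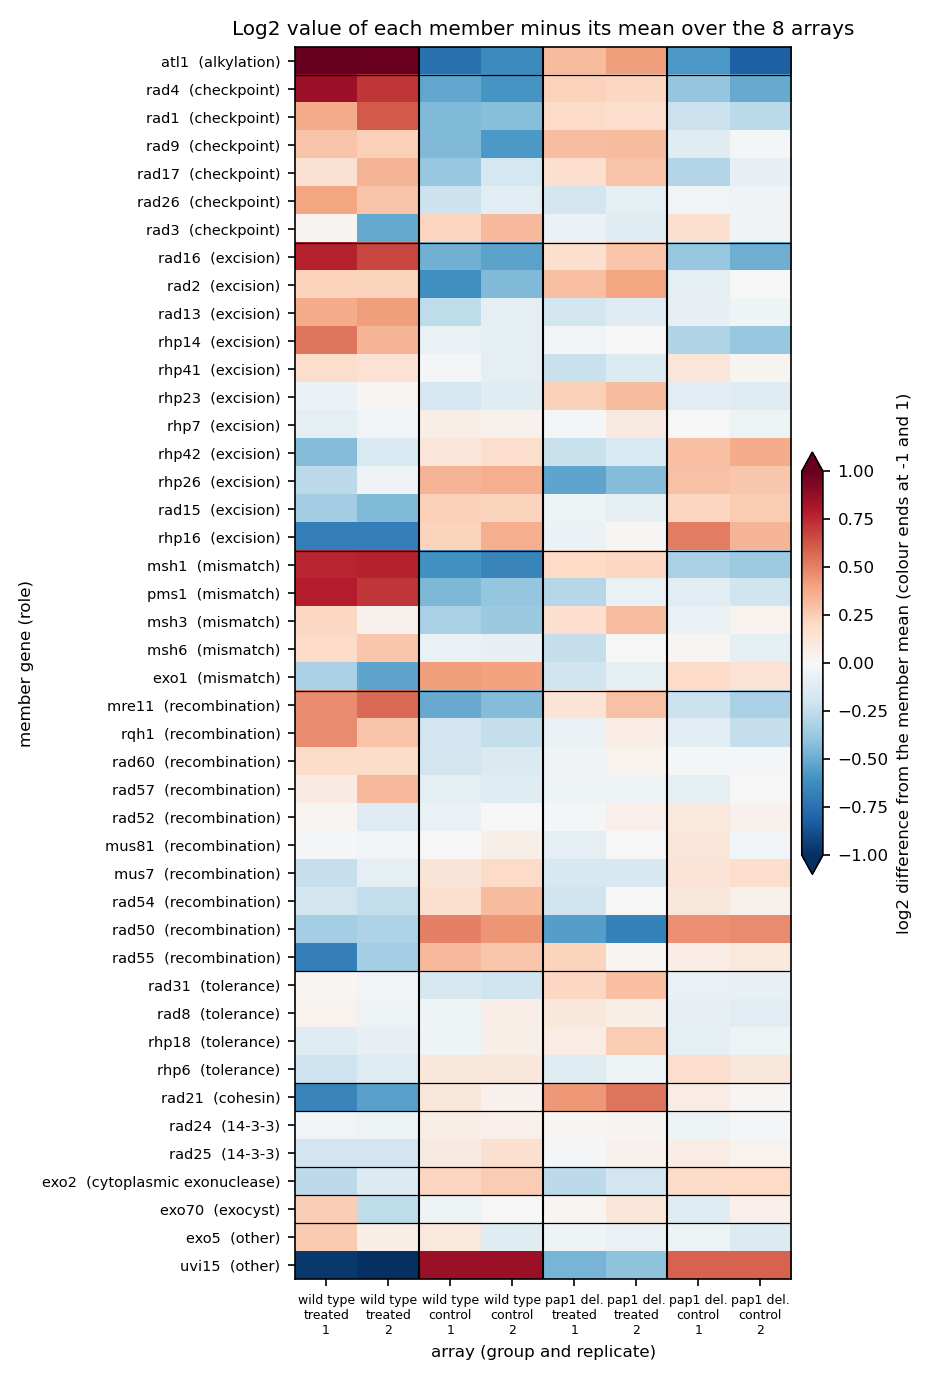
Log2 value of each of the 44 members (rows, grouped by role) in each of the 8 arrays (columns), minus the member's own mean over the 8 arrays. Red is above and blue below that mean, and colours end at -1 and 1. Among checkpoint and mismatch genes most rows are red in treated wild type arrays, while uvi15 is blue in treated arrays of both strains.

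In wild type cells under nitric oxide, repair genes moved both ways. Of the 44 members, 21 rose and 15 fell, and 8 did not pass the test (limma across all 2896 genes, Benjamini-Hochberg adjusted p under 0.05). Over all genes 40.5% rose and 39.7% fell, so 80.2% passed, beside 81.8% of the members. The shares of members were thus close to those of all genes. The median member difference was 0.070, against 0.017 over all genes. It was 0.0082 without treated replicate 1 and 0.14 without treated replicate 2. Treated and control arrays did not overlap in 40 of 44 members and in 90.2% of all genes. The size of a typical change was also similar, with a median absolute difference of 0.50 for members and 0.46 for all genes. Changes of at least 2-fold past the test were seen in 6 members, atl1, msh1, rad4, rad16, pms1 and uvi15, and in 17.9% of all genes.

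The largest rise was in atl1, which encodes an alkyltransferase-like protein that binds alkylated guanine and passes it to excision repair. Its values were 6.59 and 6.52 in treated wild type arrays, against 4.78 and 4.89 in control arrays. Both treated arrays lay above both controls, a 3.29-fold rise (1.72 ± 0.087 on the log2 scale, SE, n = 2 per group, adjusted p = 1.62e-06). The largest fall was in uvi15, named for its induction by ultraviolet light. It read 9.50 and 9.40 in treated wild type arrays, against 11.33 and 11.32 in control arrays, a 3.67-fold fall (-1.88 ± 0.049, adjusted p = 1e-07). Both treated arrays lay below both controls. In the reference gene order uvi15 is the neighbour of rhp14, the XPA homologue of excision repair, which rose (0.52 ± 0.068).

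Of 6 checkpoint members 5 rose and 1 fell in wild type cells (median 0.65), beside 40.5% and 39.7% of all genes. In a list of 14 other checkpoint genes, described below, 7 rose and 5 fell. The largest rise among the 6 members was in rad4, which encodes a BRCT scaffold of the TopBP1 type used in replication and the checkpoint. It read 7.69 and 7.54 in treated wild type arrays, against 6.31 and 6.24 in control arrays, a 2.53-fold rise (1.34 ± 0.064, adjusted p = 1.21e-06). The checkpoint clamp subunit gene rad1 read 7.86 and 8.10 in treated wild type arrays, against 7.05 and 7.07 in control arrays (0.93 ± 0.075, adjusted p = 1.75e-05). In both genes the treated arrays lay above the controls without overlap. The second clamp subunit gene, rad9, rose by 0.77 and the clamp loader gene rad17 by 0.52. The third clamp subunit gene, hus1, which the name rule does not take in, fell by 1.12 (-1.12 ± 0.09, adjusted p = 1.66e-05). The checkpoint kinase and its partner also parted: rad26 rose (0.50 ± 0.06) while rad3, the ATR kinase gene, fell (-0.51 ± 0.16, adjusted p = 0.0205). The rad3 arrays read 5.43 and 4.89 in treated wild type arrays, against 5.61 and 5.72 in control arrays, and the treated pair spread more widely than the controls. The fall of rad3 did not pass without wild type control replicate 2.

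**Figure D2:**
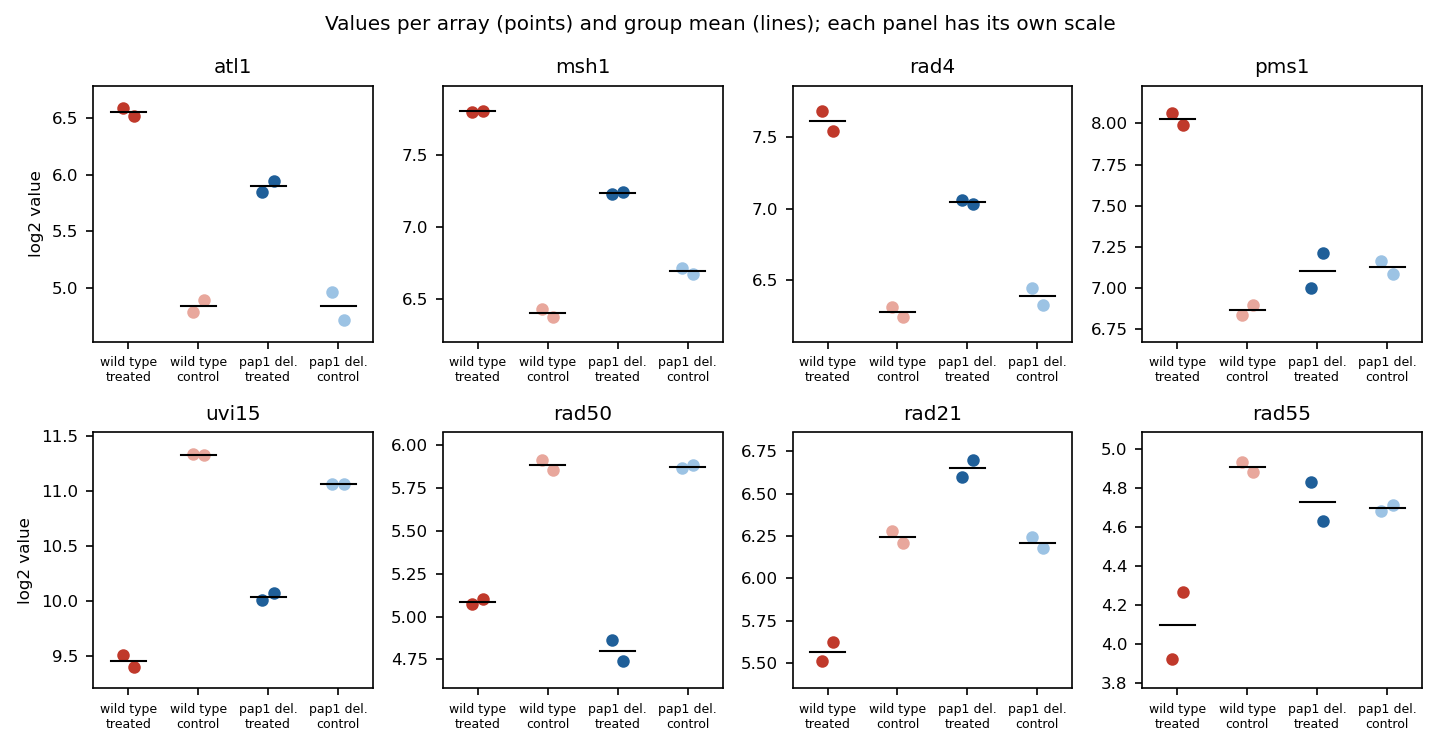
Log2 values per array (points) and group means (lines) for 8 members, with treated left of control in each strain and a separate vertical scale in each panel. In atl1, msh1 and rad4 treated arrays lie above control arrays in both strains, and in uvi15 and rad50 below. In pms1 and rad55 the deletion arrays overlap, and in rad21 the strains move in opposite directions.

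Of 11 excision repair genes 6 rose and 4 fell in wild type (median 0.12), beside 40.5% and 39.7% of all genes. The XPF nuclease gene rad16, whose product cuts on the 5' side of a lesion, read 7.41 and 7.31 in treated wild type arrays, against 6.16 and 6.11 in control arrays, a 2.34-fold rise (1.23 ± 0.064, adjusted p = 1.84e-06). The gene of its partner subunit, swi10, rose as well (0.79 ± 0.075). The flap nuclease gene rad2 (0.76 ± 0.068) and rad13 (0.57 ± 0.06), the XPG nuclease gene that cuts on the 3' side, also rose. Against these stood rhp16, whose product acts with Rhp7 in repair of untranscribed DNA. It read 5.20 and 5.20 in treated wild type arrays, against 6.11 and 6.25 in control arrays (-0.98 ± 0.072, adjusted p = 1.05e-05), with no overlap. Its partner and neighbour rhp7 did not pass (-0.12 ± 0.052, adjusted p = 0.0734). The XPD helicase gene rad15 (-0.62 ± 0.047) and rhp26 (-0.50 ± 0.075), the CSB homologue of transcription-coupled repair, fell. The 2 XPC homologues parted: rhp41 rose (0.22 ± 0.056) and rhp42 fell (-0.44 ± 0.089). The smallest change to pass in wild type was in rhp23, which encodes a partner of the XPC homologues (0.12 ± 0.049, adjusted p = 0.0498), and its call ended without either wild type control array, wild type treated replicate 2 or either deletion control array. The calls of rhp41 and of rad31, a gene of SUMO activation, ended without wild type control replicate 2.

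Of 5 mismatch repair members 4 rose and 1 fell (median 0.47), beside 40.5% and 39.7% of all genes. The gene of the mitochondrial MutS homologue, msh1, read 7.80 and 7.81 in treated wild type arrays, against 6.43 and 6.38 in control arrays, a 2.64-fold rise (1.40 ± 0.041, adjusted p = 1.47e-07). The msh1 groups stood far apart relative to the spread within each. The MutL homologue gene pms1 read 8.07 and 7.99 in treated wild type arrays, against 6.83 and 6.89 in control arrays, 2.24-fold higher (1.17 ± 0.076, adjusted p = 5.52e-06). The nuclear MutS homologues msh3 (0.47 ± 0.074) and msh6 (0.31 ± 0.083) rose less. The exonuclease gene exo1, which removes the mismatched strand, moved the other way. It read 5.90 and 5.69 in treated wild type arrays, against 6.64 and 6.62 in control arrays (-0.84 ± 0.072, adjusted p = 2.39e-05), and treated arrays lay below the controls.

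Recombination genes were evenly divided, with 4 of 10 risen and 4 fallen (median -0.036), beside 40.5% and 39.7% of all genes. The Mre11 complex, which binds and trims broken ends, was divided within itself. The nuclease gene mre11 read 6.71 and 6.80 in treated wild type arrays, against 5.73 and 5.80 in control arrays (0.99 ± 0.069, adjusted p = 7.78e-06). The ATPase gene rad50 read 5.07 and 5.10 in treated wild type arrays, against 5.92 and 5.86 in control arrays (-0.80 ± 0.052, adjusted p = 5.66e-06). Neither gene's groups overlapped, and nbs1, the third subunit gene and no member by name, rose (0.55 ± 0.075). The recombination mediator genes parted likewise, with rad55 lower (-0.81 ± 0.11) and rad57 higher (0.32 ± 0.079). The treated mean of rad55 was 4.09, near background. The RecQ helicase gene rqh1 (0.59 ± 0.08) and rad60 (0.34 ± 0.042), which works with the Smc5-Smc6 complex, rose. The translocase gene rad54 (-0.45 ± 0.08) and mus7 (-0.32 ± 0.055), needed for repair of broken forks, fell. The strand-annealing gene rad52, at group means of 3.98 to 4.11 near background, and the structure-selective nuclease gene mus81 did not pass (-0.021 ± 0.061 and -0.051 ± 0.062).

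Among the damage tolerance genes, 1 of 4 rose and 1 fell. The SUMO-activating enzyme gene rad31 rose (0.18 ± 0.047) and the ubiquitin-conjugating enzyme gene rhp6 fell (-0.28 ± 0.048), while the ubiquitin ligase genes rhp18 (-0.11) and rad8 (-0.018) did not pass. The cohesin subunit gene rad21, whose product holds sister chromatids together and is cleaved at anaphase, fell (-0.68 ± 0.061). The 14-3-3 gene rad25 fell (-0.32 ± 0.045) and rad24 did not pass (-0.095 ± 0.038, adjusted p = 0.0522). The RNA exonuclease gene exo2 fell (-0.43 ± 0.054), and exo70 (0.018 ± 0.15) and exo5 (0.17 ± 0.092) did not pass. Without these last 5 and uvi15, 21 of 38 members rose and 12 fell, with a median of 0.20. The cut took out the falls of rad25, exo2 and uvi15 and no rise. Over all genes 40.5% rose and 39.7% fell.

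In cells lacking pap1, fewer members passed than in wild type, and most differences were smaller. Of the 44 members 16 rose, 11 fell and 17 did not pass. Over all genes 35.5% rose and 26.9% fell, so 62.4% passed, beside 61.4% of the members. Groups did not overlap in 33 of 44 members and in 83.1% of all genes. In the deletion 3 members changed by at least 2-fold past the test, atl1, uvi15 and rad50, and 2.94% of all genes did so. The median absolute difference was 0.28 for members and 0.24 for all genes. The difference was smaller in size in the deletion than in wild type for 33 of the 44 members (75.0%) and for 75.2% of all genes. Across members the differences in both strains had a Pearson correlation of 0.79, as they had across all 2896 genes, a description over genes that share arrays.

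The largest rises in the deletion were in atl1, rad4, rad16, msh1 and mre11. The alkylated-guanine binding gene atl1 read 5.85 and 5.95 in treated pap1 deletion arrays, against 4.96 and 4.72 in control arrays (1.06 ± 0.087, 2.08-fold, adjusted p = 6.59e-05). The checkpoint scaffold gene rad4 read 7.06 and 7.04 in treated pap1 deletion arrays, against 6.44 and 6.33 in control arrays (0.66 ± 0.064, adjusted p = 0.000134), and rad16 read 6.80 and 6.92 in treated pap1 deletion arrays, against 6.26 and 6.15 in control arrays (0.65 ± 0.064, adjusted p = 0.00014). No treated array of these genes overlapped a control array. The mitochondrial mismatch gene msh1 read 7.23 and 7.25 in treated pap1 deletion arrays, against 6.71 and 6.67 in control arrays (0.54 ± 0.041, adjusted p = 4.67e-05). The nuclease gene mre11 read 6.37 and 6.53 in treated pap1 deletion arrays, against 6.02 and 5.91 in control arrays (0.48 ± 0.069, adjusted p = 0.000805). Both rose without overlap. Smaller rises passed for rad1, rad17, rad2, rhp23, rad9, rad31, rhp14, msh3, rhp18 and rad8, from 0.43 down to 0.19, and for rad21. The calls of msh3 and rad17 ended without deletion control replicate 1 or treated replicate 2, and that of rhp18 without either of these or control replicate 2. The call of rad8 ended without either deletion control array or treated replicate 1.

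The largest fall in the deletion was in rad50. It read 4.86 and 4.74 in treated pap1 deletion arrays, against 5.87 and 5.88 in control arrays, 2.1-fold lower (-1.07 ± 0.052, adjusted p = 8.01e-06). The ultraviolet-induced gene uvi15 read 10.01 and 10.06 in treated pap1 deletion arrays, against 11.06 and 11.06 in control arrays (-1.02 ± 0.049, 2.03-fold, adjusted p = 7.57e-06). In each, treated arrays lay below controls by about 1 unit. The transcription-coupled repair gene rhp26 read 5.72 and 5.80 in treated pap1 deletion arrays, against 6.54 and 6.51 in control arrays (-0.76 ± 0.075, adjusted p = 0.00014). The XPC homologue gene rhp42 read 5.84 and 5.91 in treated pap1 deletion arrays, against 6.36 and 6.43 in control arrays (-0.52 ± 0.089, adjusted p = 0.0018), and rhp16 read 5.83 and 5.90 in treated pap1 deletion arrays, against 6.41 and 6.23 in control arrays (-0.45 ± 0.072, adjusted p = 0.00137). These 3 excision genes fell without overlap between groups. Smaller falls passed for exo2, exo1, mus7, rad15, rhp41 and rhp6, from -0.42 to -0.23.

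**Figure D3:**
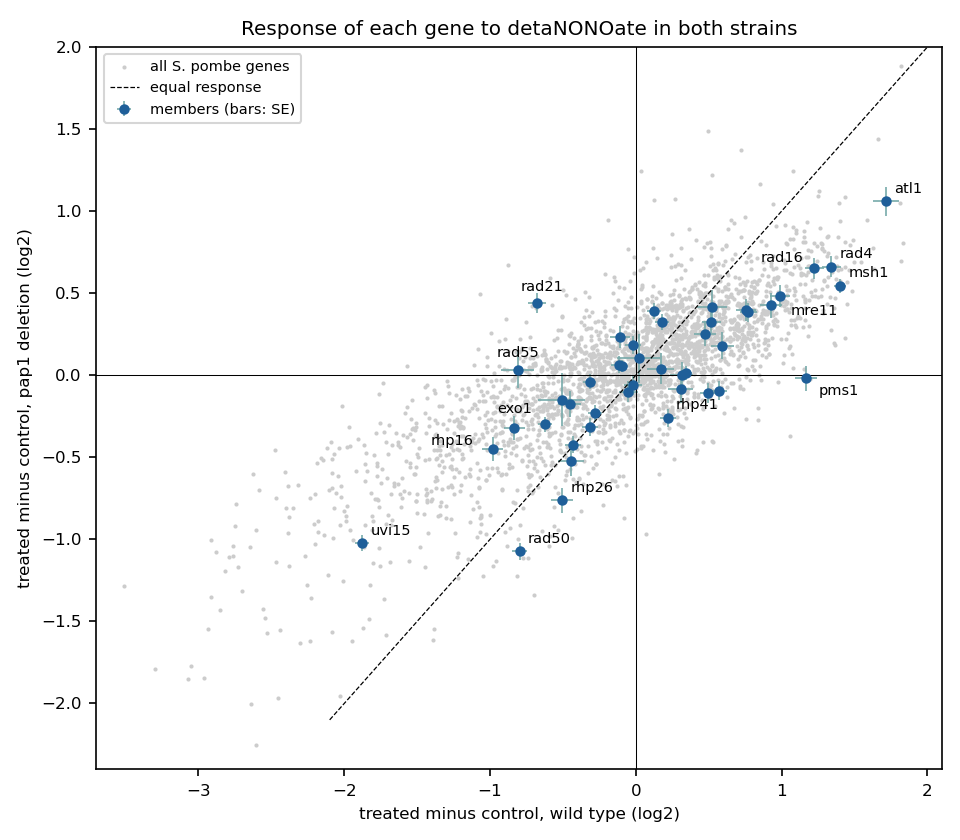
Treated minus control (log2) in wild type (horizontal) and in the pap1 deletion (vertical) for the 44 members, with SE bars, over all 2896 S. pombe genes in grey. The dashed line marks equal responses. Members with large changes in wild type mostly lie nearer to 0 in the deletion, rad50 and rhp26 lie beyond the line, and rad21 has opposite signs.

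Taking both comparisons together, 13 members rose in both strains and 10 fell in both. A further 11 passed in wild type alone and 2 in the deletion alone, 6 passed in neither, and 2 passed in opposite directions. The same direction in both strains was called for 52.3% of members and 50.1% of all genes and opposite directions for 4.55% of members and 4.73% of all genes. These shares were close to those of all genes. The opposite pair was rad21, which rose in the deletion and fell in wild type, and rhp41, which fell in the deletion (-0.26 ± 0.056) and rose in wild type (0.22 ± 0.056). For mre11 and rad50, whose proteins form a complex, the division seen in wild type was also seen in the deletion. Their partner gene nbs1 did not pass there (0.046 ± 0.075). Of the divided pairs named above, rad26 (-0.11) and rad3 (-0.15), and rad55 (0.034) and rad57 (0.0038), did not pass in the deletion either. The cohesin genes psc3 and psm1, described below, were divided in both strains, at 0.72 and -1.11 in the deletion. For hus1 the deletion gave -0.20 ± 0.09 (adjusted p = 0.0951), beside rises of 0.43 in rad1 and 0.38 in rad9.

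**Figure D4:**
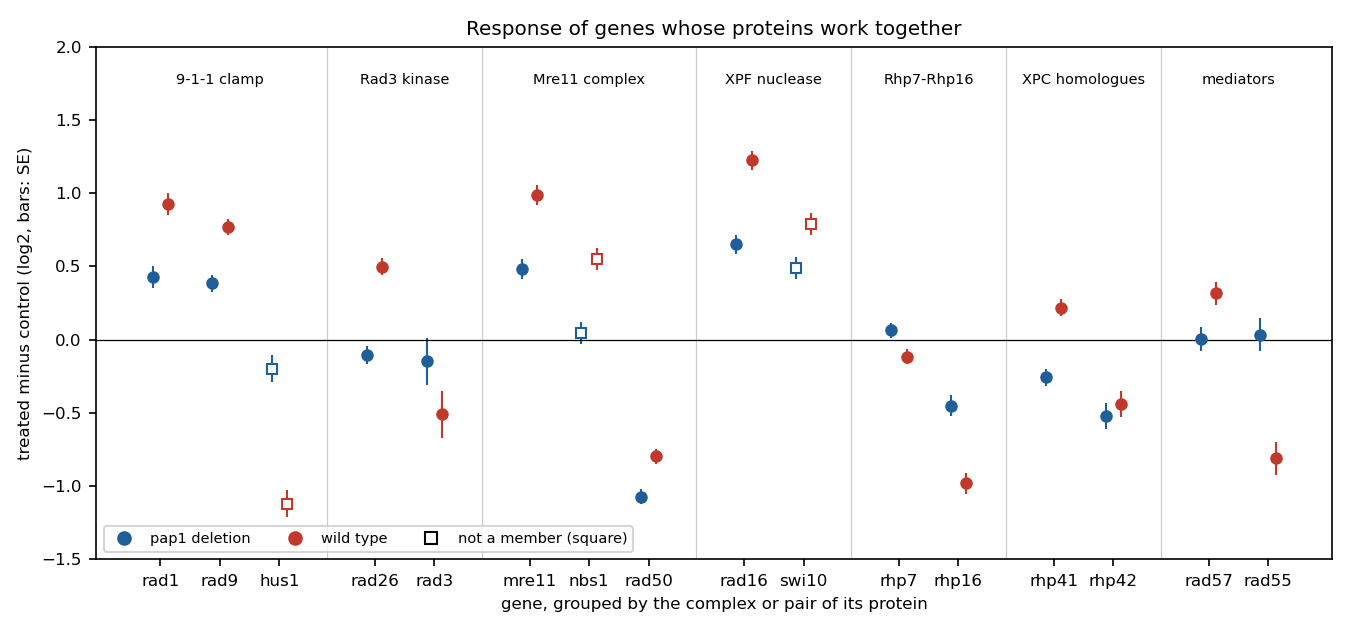
Treated minus control (log2, SE bars) in the pap1 deletion (blue) and wild type (red) for genes grouped by the complex or pair of their proteins. Circles are members and open squares are partner genes that the name rule leaves out. In wild type, hus1 lies below 0 and rad1 and rad9 above, rad50 below and mre11 and nbs1 above, and rad55 below and rad57 above.

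The 3' to 5' index was 2.01 higher in treated than in control arrays of wild type and 0.99 higher in the deletion, so it moved with every response above. A limma fit with 1 treatment effect for both strains called 14 members higher and 11 lower, 56.8% of members beside 63.7% of all genes. With the index added as a covariate it called 5 higher and 7 lower, 27.3% of members beside 28.3% of all genes. The sign differed between the fits for 21 members, or 47.7%, and for 50.5% of all genes. The members' shares were close to those of all genes in the fit with the index. That fit has no interaction and the index varied little within groups. It therefore cannot separate the index from differences between the strains in the response. Members called in the same direction with and without the index were 5: rad31 (0.43 with the index) and rhp23 (0.63) higher, and exo2 (-0.42), rad50 (-1.31) and rhp26 (-1.01) lower. Of the 6 members that changed at least 2-fold in wild type, 5 did not pass with the index: atl1 stood at 0.44, msh1 at -0.25, rad4 at 0.026, rad16 at 0.086 and uvi15 at -0.26. The sixth, pms1 (-1.15), was called lower in the fit with the index, and so were rhp41 (-0.73), rad13 (-0.69) and rad26 (-0.67), none of which was called without it. Called higher only there were rad21 (1.43), rad55 (0.86) and rad8 (0.40). Of the members called only with the index, all except rad8 also passed the test of the strain difference below.

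Whether the response itself differed between the strains was tested as the deletion's response minus that of wild type. It passed for 27 of 44 members, 10 higher and 17 lower, where 33.9% of all genes were higher and 25.1% lower, 59.1% in all. A difference of at least 2-fold past the test was seen in 2 members, pms1 and rad21, and in 6.56% of all genes. After quantile normalization the split was 7 and 20 members, and 810 and 975 of all genes in place of 983 and 728. The median member difference was -0.094, against 0.053 over all genes. With arrays centred it was -0.18 for members and -0.029 over all genes, and with quantile normalization -0.22 for members and -0.047 over all genes. Without wild type control replicate 1 the member median was -0.037, and without deletion treated replicate 1 it was -0.046. The index shift was smaller in the deletion, and its part in these differences was not tested.

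The most negative difference was in pms1 (-1.19 ± 0.11, adjusted p = 0.000121). It read 7.00 and 7.21 in treated pap1 deletion arrays, against 7.16 and 7.08 in control arrays, so the groups overlapped (-0.019 ± 0.076), while in wild type it had risen by 1.17. It was followed by msh1 (-0.86 ± 0.058, adjusted p = 4.5e-05), rad4 (-0.68 ± 0.091), rad13 (-0.66) and atl1 (-0.66 ± 0.12, adjusted p = 0.00325). Of these, msh1, rad4 and atl1 rose in both strains and less in the deletion. The clearest positive difference was in the cohesin gene rad21 (1.12 ± 0.086, adjusted p = 6.98e-05). It read 6.60 and 6.70 in treated pap1 deletion arrays, against 6.24 and 6.18 in control arrays (0.44 ± 0.061, adjusted p = 0.000709). Its values were 5.51 and 5.62 in treated wild type arrays, against 6.28 and 6.21 in control arrays, so treated arrays lay above controls in the deletion and below them in wild type. The fall of uvi15 was smaller in the deletion (0.85 ± 0.069, adjusted p = 7.76e-05). The mediator gene rad55 read 4.83 and 4.63 in treated pap1 deletion arrays, against 4.68 and 4.71 in control arrays, where the groups overlapped (0.034 ± 0.11). Its values were 3.92 and 4.27 in treated wild type arrays, against 4.93 and 4.88 in control arrays, without overlap. The difference between strains was 0.85 ± 0.16 (adjusted p = 0.00336), and the treated wild type values lay near the background of 3.41.

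For rad50 the difference between strains was also negative (-0.28 ± 0.074, adjusted p = 0.0151), where the fall was larger in the deletion. Its call ended without wild type control replicate 2 or without deletion control replicate 2. The estimate was close to 0 for mus7 (0.0043 ± 0.078) and exo2 (0.01 ± 0.077), both of which fell in both strains.

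**Figure D5:**
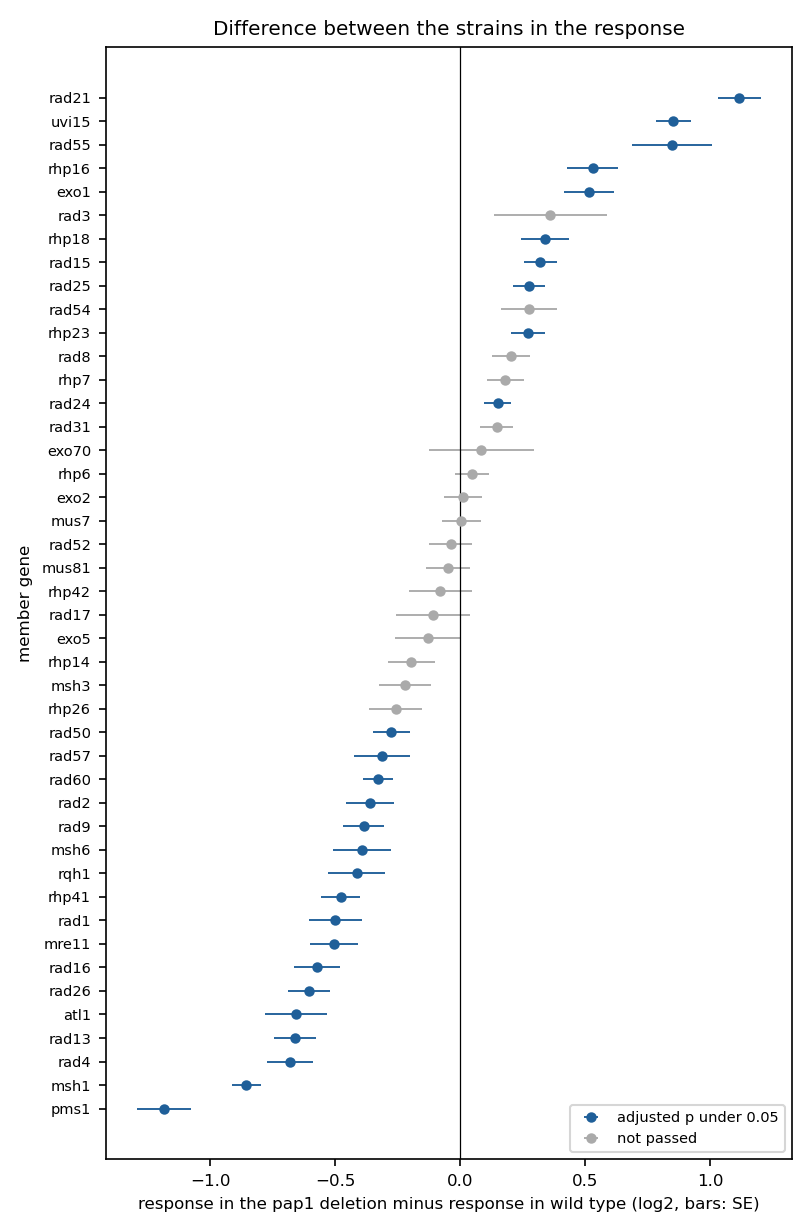
Response in the pap1 deletion minus response in wild type (log2, SE bars) for each of the 44 members, in order of size. Blue points passed at an adjusted p under 0.05 and grey points did not. The points run from pms1 at -1.19 to rad21 at 1.12.

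Without active nitric oxide few of these genes differed between the strains. The index was 0.31 higher in deletion than in wild type control arrays, and its part was not tested. Between pap1 deletion and wild type control arrays 4 members were higher and 2 lower in the deletion, where 8.22% of all genes were higher and 9.15% lower, 17.4% in all. The strains did not overlap in 28 members and in 69.5% of all genes. No member differed by 2-fold past the test, beside 0.173% of all genes. When every array was centred on its own median the split was 7 and 1 members, and 335 and 249 of all genes in place of 238 and 265. Higher were rad2, which read 5.86 and 5.96 in deletion and 5.34 and 5.51 in wild type controls (0.48 ± 0.068, adjusted p = 0.00625), and the clamp gene rad9. The rad9 values were 5.01 and 5.11 in deletion and 4.69 and 4.56 in wild type controls (0.44 ± 0.058, adjusted p = 0.00537). Neither gene's groups overlapped. The mismatch genes msh3 (6.67 and 6.77 in the deletion, 6.41 and 6.36 in wild type) and msh1 (6.71 and 6.67 in the deletion, 6.43 and 6.38 in wild type) differed by 0.33 ± 0.074 (adjusted p = 0.026) and 0.29 ± 0.041 (adjusted p = 0.00625). Lower in the deletion were uvi15 (-0.27 ± 0.049, adjusted p = 0.0135) and its neighbour rhp14 (-0.26 ± 0.068, adjusted p = 0.0413). The calls of rad2 and rad9 passed with any single array left out. Those of msh3, uvi15 and rhp14 ended without any 1 of the 4 control arrays, and that of msh1 without wild type control replicate 2 or deletion control replicate 1. The call of rhp14 also ended without either deletion treated array. In all, 3 members passed without wild type control replicate 1 or deletion control replicate 2, 2 without wild type control replicate 2 or deletion control replicate 1, and 10 without either wild type treated array. The repair gene atl1 had the same mean in both control groups (4.84 in the deletion, 4.84 in wild type).

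Under active nitric oxide the same comparison gave 10 members higher and 17 lower in the deletion. Over all genes 39.3% were higher and 26.5% lower, 65.8% in all. The strains did not overlap in 34 members and in 81.6% of all genes, and 1 member, rad21, differed by 2-fold past the test, beside 4.56% of all genes. After quantile normalization 25 members passed in place of 27, as the calls of exo1 and rad25, both higher, were lost. Of all genes 913 were then higher and 1020 lower in place of 1139 and 766. This comparison shares its treated arrays with those above. The gene furthest above wild type was rad21, at 6.60 and 6.70 in deletion and 5.51 and 5.62 in wild type treated arrays (1.08 ± 0.061, 2.12-fold, adjusted p = 9.42e-06). It was followed by rhp16, at 5.83 and 5.90 in the deletion and 5.20 and 5.20 in wild type (0.67 ± 0.072, adjusted p = 0.000167). Then came rad55 (0.63 ± 0.11, adjusted p = 0.00197) and uvi15 (0.58 ± 0.049, adjusted p = 4.79e-05). Furthest below was pms1, at 7.00 and 7.21 in deletion and 8.07 and 7.99 in wild type treated arrays (-0.92 ± 0.076, adjusted p = 4.62e-05). The alkylation gene atl1 was also lower (-0.66 ± 0.087, adjusted p = 0.000452). For rad21, rhp16 and pms1 no array of one strain overlapped an array of the other. The index was 0.71 lower in deletion than in wild type treated arrays, and its part was not tested.

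Lists of other genes were chosen by pathway, without the members. The repair and checkpoint lists together held 86 genes, among them some of nucleotide supply, with the cohesin and exocyst lists kept apart after the data were seen. In wild type 46 of the 86 rose and 24 fell, with a median of 0.32, where 40.5% of all genes rose and 39.7% fell, with a median of 0.017. In the deletion 39 rose and 13 fell, with a median of 0.15, where 35.5% of all genes rose and 26.9% fell, with a median of 0.047. In the fit with 1 treatment effect, 44 of the 86 were higher and 16 lower, beside 1002 and 844 of all 2896 genes. With the index, in a comparison added after the data were seen, 11 were higher and 9 lower, 23.3% of them beside 28.3% of all genes. The Smc5-Smc6 complex, a ring related to cohesin that acts in recombination, had 6 of 8 genes risen in wild type and none fallen, and 7 risen in the deletion. Its largest rises in wild type were in nse6 (1.24 ± 0.089), nse2 (1.00 ± 0.042) and nse1 (0.92 ± 0.076). In the deletion the values of these genes were 0.70 ± 0.089 for nse6, 0.45 ± 0.042 for nse2 and 0.54 ± 0.076 for nse1. In the fit with 1 treatment effect, 7 of these 8 genes were higher without the index and 1 with it. Over all genes 63.7% were called without the index and 28.3% with it.

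Among other checkpoint genes 7 of 14 rose and 5 fell in wild type. The changes were led by the fork protection genes swi1 (1.43 ± 0.051) and swi3 (1.29 ± 0.058) and by the fall of hus1. The fall of chk1 was near background, at group means of 2.96 to 3.53. In the deletion 5 of the 14 rose and 2 fell. Over all genes 40.5% rose and 39.7% fell in wild type, and 35.5% rose and 26.9% fell in the deletion. Among recombination mediators, nucleases and helicases 14 of 21 rose and 5 fell, with the histone-fold gene mhf1 (1.63 ± 0.039), the nuclease gene slx1 (1.33 ± 0.15) and swi5 (1.15 ± 0.041) at the head. In the deletion 12 rose and 1 fell. The gene top3, among those that fell in wild type, read below background, at group means of 2.33 to 2.72. In the list of translesion synthesis and its ubiquitin enzymes 6 of 10 rose and 1 fell, led by rev7 of polymerase zeta (1.00 ± 0.087), the polymerase eta gene eso1 (0.88 ± 0.079) and the clamp unloader gene elg1 (0.87 ± 0.10). In the deletion 7 rose and 2 fell.

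Base excision repair and end processing was divided, with 4 of 12 genes risen and 5 fallen in wild type. Of these, the rise of mag2 and the fall of apn1 were near background, at group means of 3.09 to 3.97 and 3.22 to 3.67. The adenine glycosylase gene myh1 fell (-0.91 ± 0.11) and the glycosylase gene nth1 (0.80 ± 0.048) and the endonuclease gene apn2 (0.79 ± 0.11) rose. In the deletion 2 rose and 4 fell. For each list here the all-gene shares were 40.5% risen and 39.7% fallen in wild type, and 35.5% and 26.9% in the deletion. End joining had 3 of 8 genes risen and 3 fallen, with the Ku gene pku70 at -0.55 ± 0.084, nbs1 at 0.55 and ctp1 at 0.54. In the deletion 2 rose and 2 fell. In the list of TFIIH, excision partners and nucleotide supply 5 of 14 rose and 6 fell. The ubiquitin ligase adaptor gene cdt2 fell most (-1.86 ± 0.13), then the TFIIH subunit gene tfb4 (-1.09 ± 0.094), while swi10 rose. The treated wild type mean of tfb4 was 3.70, near background. In the deletion 3 rose and 3 fell. The ultraviolet-induced gene uvi31 rose in the deletion (0.36 ± 0.076) and in wild type (0.73 ± 0.076), where uvi15 had fallen in both.

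The cohesin list held 10 genes other than rad21, for subunits of the complex that contains Rad21, its meiotic forms, its loader and its regulators. Its gene eso1 was also in the translesion synthesis list. The meiotic genes rec8 and rec11 read near background, at group means of 3.99 to 4.61 and 3.45 to 3.66. In wild type 7 of the 10 rose and 1 fell, where 40.5% of all genes rose and 39.7% fell. The regulatory subunit gene psc3 rose (1.17 ± 0.077) and the core ring gene psm1 fell (-0.77 ± 0.077). In the deletion 6 rose and 2 fell, psm1 among those that fell (-1.11 ± 0.077), where 35.5% of all genes rose and 26.9% fell. The response of none of the 10 passed as higher in the deletion than in wild type, and 6 passed as lower, where rad21 was higher. Over all genes 33.9% passed as higher and 25.1% as lower, 59.1% in all, beside 60.0% of the list. In the fit with 1 treatment effect 5 of the 10 were higher and 1 lower without the index, and none higher and 2 lower with it. For the exocyst, which contains Exo70, 2 of 4 other genes rose and none fell in wild type, sec8 (0.28) and sec6 (0.23). In the deletion 2 rose and none fell.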

How the data were processed

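Biotin-labelled RNA, made from 100 ng of total RNA, had been hybridized to 8 Affymetrix Yeast_2 arrays, per the labels. The deposited values are log2 summaries per probe set made by the authors with RMA, per the submitters' processing notes. The version is not given in the sources used here. They were used without further scaling. Of 10928 probe sets, 2914 named exactly 1 S. pombe gene. For 14 genes with several, the brightest on average was kept. The 44 members each had 1.

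Groups and replicate numbers came from the sample titles. One mean per group was fitted over all 8 arrays and all 2896 genes with limma 3.58.1 in R 4.3.3 (lmFit, eBayes without trend, 4 residual and 3.07 prior degrees of freedom). Adjusted p-values are Benjamini-Hochberg over all genes, and rose, fell or passed means an adjusted p under 0.05. Errors are moderated SE unless called SD. The steps were tested on simulated data in which few genes changed, in treated wild type arrays only, and the index did not shift. That setting differs from these data, so it does not test the calls made here. The number of arrays limits the precision.

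The members, the pathway lists, the tests and the alternatives were chosen with earlier results of these data known. Values per array are given for the 10 members with the largest changes past the threshold in each treatment comparison, 6 for the strain difference, 5 for each strain comparison, and atl1 and uvi15. Lists give up to 3 genes each with the largest wild type changes past the threshold. Exceptions chosen after values were seen are the arrays of rad3 and the deletion values of list genes.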

Additional observations from a re-analysis of the deposited data

Results flagged for a closer look

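The response to nitric oxide differed between the strains, by the interaction test in limma, for 27 members. Each value is the response in the pap1 deletion minus the response in wild type (log2).
Among genes with a negative difference, the mismatch repair genes stood at -1.19 for pms1, -0.86 for msh1 and -0.39 for msh6. The checkpoint genes stood at -0.68 for rad4, -0.60 for rad26, -0.50 for rad1 and -0.39 for rad9. The excision genes stood at -0.66 for rad13, -0.57 for rad16, -0.48 for rhp41 and -0.36 for rad2, and atl1 at -0.66. The recombination genes stood at -0.50 for mre11, -0.41 for rqh1, -0.33 for rad60, -0.31 for rad57 and -0.28 for rad50.
Among genes with a positive difference, rad21 stood at 1.12, uvi15 at 0.85, rad55 at 0.85, rhp16 at 0.53 and exo1 at 0.52. Smaller ones were 0.34 for rhp18, 0.32 for rad15, 0.28 for rad25, 0.27 for rhp23 and 0.15 for rad24. Over all genes 59.1% passed this test. The call of rad24 ended without any 1 of the 8 arrays and that of rad57 without any but wild type treated replicate 1. The call of msh6 ended without either wild type control array, wild type treated replicate 2 or deletion control replicate 1. That of rqh1 ended without wild type control replicate 2, deletion control replicate 1 or deletion treated replicate 1, and that of rhp18 without the first 2 of these. The call of rad2 ended without deletion control replicate 2, and that of rad50 without that array or wild type control replicate 2. Groups of 2 arrays are too small for a test of single outlying arrays.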

How the results depend on the processing

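The index as a covariate changed most: in the common effect the members called higher and lower were 14 and 11 without it and 5 and 7 with it, the median was 0.0043, and 21 members had the other sign. Of the named genes pms1 stood at 0.57 without the index and -1.15 with it. No member was called in the opposite direction under the other alternatives run, and calls were lost under at least 1 of them by 5 members in wild type (rad3, rad25, rad31, rhp23, rhp41), 4 in the deletion (msh3, rad8, rad17, rhp18) and 9 for the strain difference (msh6, rad2, rad24, rad25, rad50, rad57, rhp18, rhp23, rqh1). Between control strains 4 lost theirs (msh1, msh3, rhp14, uvi15) and between treated strains 5 (exo1, rad25, rad57, rad60, rhp18). The median wild type difference was 0.16 after centring each array on its median, and 0.018 for genes above background or members by current symbol. It was 0.20 for the 38 members without uvi15, exo2, exo5, exo70 and the 14-3-3 genes, and 0.0082 to 0.14 with 1 array left out. The median difference between the strains in the response was -0.18 centred, -0.22 with quantile normalization, -0.21 for the 38 members and -0.13 to -0.037 with 1 array left out, nearest 0 without wild type control replicate 1. With all probe sets 6 members were higher, and 743 of all genes in place of 983. For the strains under active nitric oxide the median was -0.037 centred, -0.093 with quantile normalization and -0.031 to 0.046 with 1 array left out, lowest without wild type treated replicate 1. Between control strains the members higher and lower were 7 and 1 centred, 7 and 4 with quantile normalization, 2 and 0 with all probe sets, and 9 and 4 with only the compared groups. Of all genes, 335 and 249 were higher and lower centred, and 311 and 273 with quantile normalization. With all probe sets they were 12 and 50, and with only the compared groups 386 and 401, in place of 238 and 265. The 38 members had 1 lower, and with 1 array left out 2 to 7 were higher and 0 to 3 lower. The cause of these moves was not tested.

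Same-numbered arrays did not deviate together (correlations of -0.04 between wild type groups, -0.26 between deletion groups, -0.08 between control strains and -0.01 between treated strains), and the labels do not say that a number marks a flask. With the replicate block the members higher and lower were 21 and 15 for wild type, 15 and 11 for the deletion, and 9 and 16 for the strain difference. They were 4 and 2 between control strains and 10 and 18 between treated strains. Of all genes, 1129 and 1121 were higher and lower for wild type, 940 and 719 for the deletion, and 910 and 646 for the strain difference. They were 156 and 210 between control strains and 1124 and 737 between treated strains. Each group has 2 arrays, exo5 lay below background, and the index moved with treatment in both strains.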
